A study of Oryza sativa Japonica Group with 8 samples.

Results

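The 4 rice genes described here are WRKY28 (Os06g0649000), WRKY62 (Os09g0417800), WRKY71 (Os02g0181300) and WRKY76 (Os09g0417600), the group IIa members of the WRKY family. They were followed in leaf blades after 1 day with linalool. They are 4 of 29690 loci named by the array's probes. Every non-control probe whose name begins with one of these identifiers was taken and read separately, 9 of 42477 probes, with 2 probes for WRKY28, 1 for WRKY62, 2 for WRKY71 and 4 for WRKY76. The names WRKY62, WRKY71 and WRKY76 are held by RefSeq's gene table (assembly ASM3414082v1) on the chromosome that the locus gives. In that table WRKY62 and WRKY76 are neighbours on chromosome 9 with 0 annotated genes between them. The name WRKY28 came with the locus and was not found in the table.

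WRKY proteins are plant transcription factors that bind W-box elements in promoters, including those of other WRKY genes. Group IIa proteins carry a leucine zipper ahead of the WRKY domain, through which they can pair with themselves and with each other. In rice they are known from studies of blast and bacterial blight, where several of them act as repressors of defence genes and are themselves induced by pathogens or elicitors.

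The linalool group was 4 arrays of blades from plants given 10 µM linalool, a floral monoterpene alcohol also released by attacked rice leaves, for 1 day. The control group was 4 arrays of blades without linalool, labelled as mock treatment in one field and as no treatment in another, and called mock here. Both groups were fifth-leaf blades of Oryza sativa Japonica cultivar Hinohikari at the five-leaf stage, grown at 25 ºC, and every replicate was a pool of at least 3 plants. RNA was hybridised in 1 colour to Agilent rice arrays. The linalool arrays shared 1 slide and the mock arrays shared a different one, so effects of slide and of linalool cannot be told apart.

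Levels are log2 of the processed signal minus the 75th percentile of the same array, so a level of 0 is that percentile. That percentile was 1092 to 1605 signal units on linalool arrays and 849.6 to 999.6 on mock arrays. The median local background was 19 on every linalool array and 26 to 28 on the mock arrays. The leaf origin was checked on 5 photosynthesis and chlorophyll genes, all well above background on all 8 arrays. All 5 were lower after linalool, with a median log2 difference of -2.27. Of the seed storage genes, GluA1 was well above background on 0 arrays and GluA2 on all of them. The genes listed for dividing cells, OSH1 and PCNA, were also well above background on all 8 arrays. Their log2 differences were -0.89 and 0.23 (limma adjusted p = 0.000973 and 0.0326). The part of this fall of leaf genes in the results below was not tested, and in bulk tissue fewer cells of a type and less RNA per cell cannot be told apart.

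All 9 probes passed the filter (well above background on at least 4 of 8 arrays) and were tested among 33124 probes with limma. With an adjusted p below 0.05, 6 of the 9 were higher after linalool, 2 were lower and 1 did not pass. Of the 6, 5 passed the filter only with their linalool arrays, being well above background on at most 1 mock array, so the count of 6 is a description and supports nothing. Over all probes tested, 28.4% were higher and 39% lower by the same rule, and the median log2 difference was -0.12. Spike-in scaling turned this balance round, to 19586 probes higher and 4387 lower, and normexp correction left 3 WRKY probes higher and 1 lower. Arrays of a probe that were not well above background were also set to a floor, the higher of their own value and the lowest signal called well above background on that array. At that floor 4 WRKY probes were higher and 2 lower. The arrays of the groups did not overlap on 5 of the higher probes and on both lower ones, against 26.7% and 36.6% of all probes tested. Apart from AK058773 of WRKY71, those 5 passed the filter only with their linalool arrays, so this count too is a description. WRKY28 had the largest differences of the 4 genes, at the floor too, WRKY62 was well above background in linalool blades only, and the probes of WRKY71 and of WRKY76 differed within their gene.

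**Figure D1:**
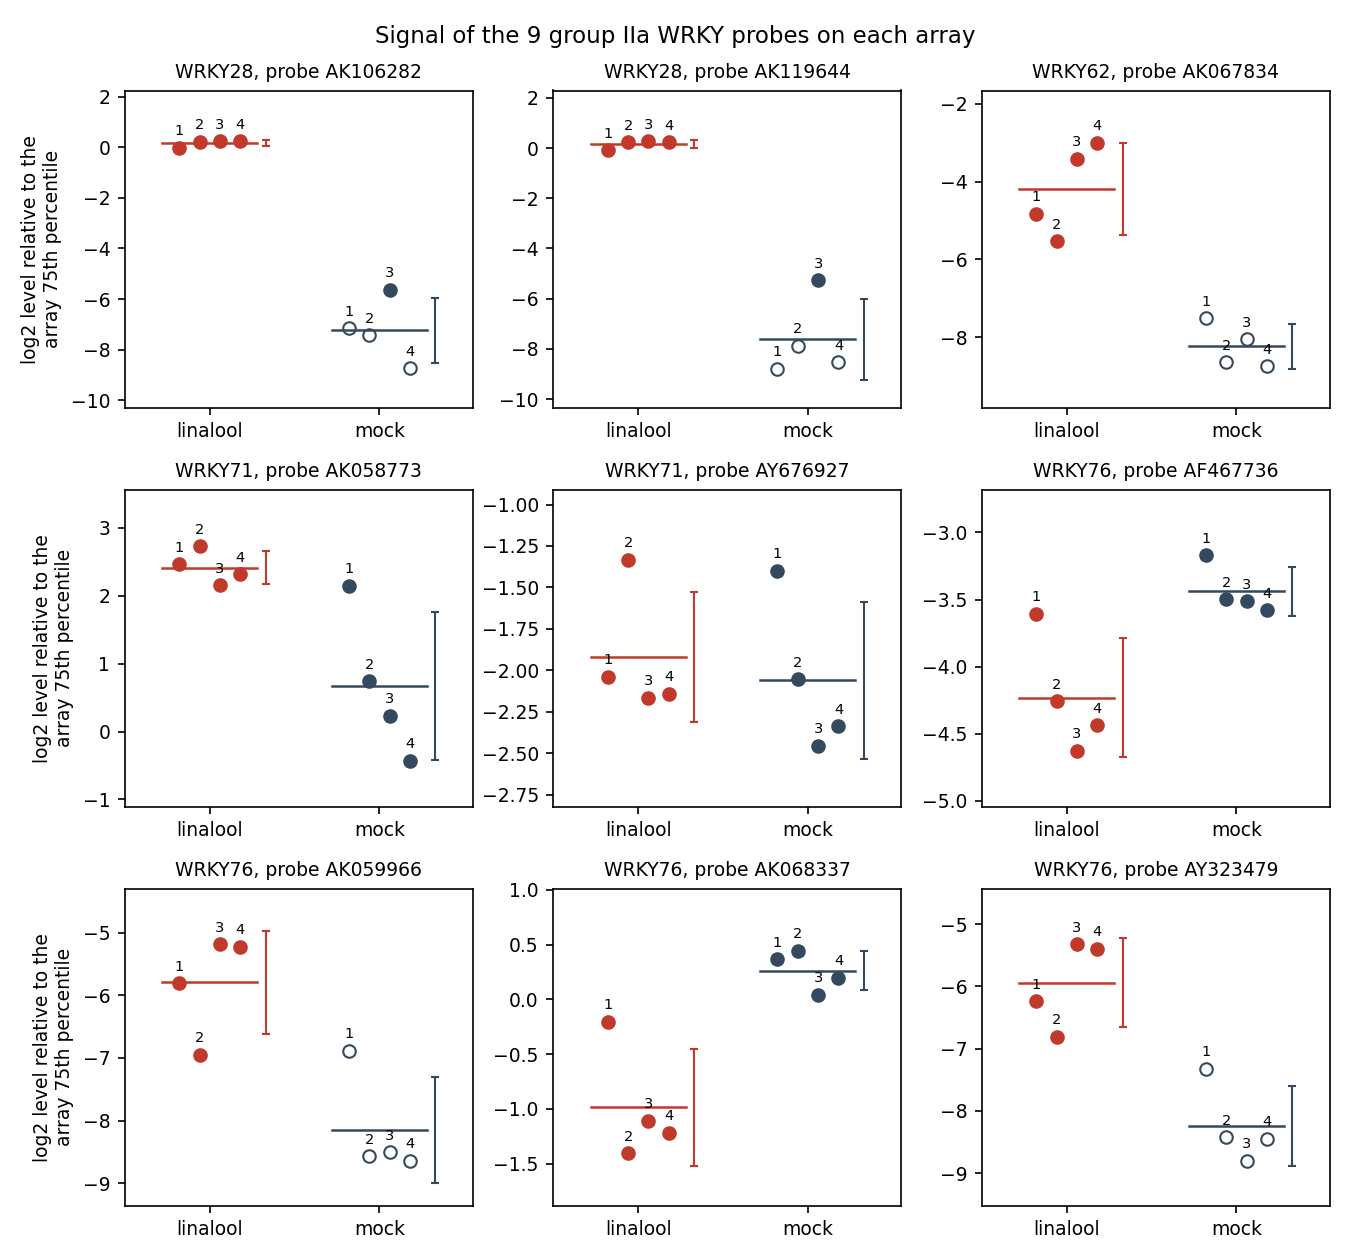
Level of each of the 9 probes on each array, as log2 relative to the 75th percentile of the array, with the replicate number above each point. Linalool arrays are red and mock arrays dark blue, open points are not well above background, lines are group means and the bars beside them are ± 1 SD (n = 4). The WRKY28 probes lie near 0 in linalool blades and below -5 in mock blades, while the WRKY76 probes AF467736 and AK068337 are lower in linalool blades and AK059966 and AY323479, open in all mock arrays, higher.

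WRKY28, reported in rice as a negative regulator of basal resistance to blast, rose on both of its probes. Probe AK106282 had levels of -0.02, 0.21, 0.24 and 0.24 on linalool replicates 1 to 4, against -7.15, -7.43, -5.63 and -8.74 on mock replicates 1 to 4. Probe AK119644 had levels of -0.09, 0.23, 0.28 and 0.24 on the linalool arrays, against -8.78, -7.87, -5.27 and -8.52 on the mock arrays. The linalool arrays lay within a narrow band on both probes, the mock arrays were spread out, and the groups did not overlap. Only mock replicate 3 was well above background among mock arrays, on both probes, with a processed signal of 17.4 and 22.3 units.

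The log2 difference was 7.40 ± 0.55 (SE, n = 4 each, limma adjusted p = 1.2e-05) for AK106282 and 7.78 ± 0.69 (SE, n = 4 each, limma adjusted p = 2.8e-05) for AK119644. Since 3 of 4 mock arrays were not well above background, these values rest partly on unmeasured signal. At the floor the differences were 6.43 and 6.34 (limma adjusted p = 1.64e-07 and 6.56e-07), or 86.2-fold and 80.9-fold. The floor stood in for those 3 mock arrays, so these p-values do not measure the spread between mock arrays. Both probes passed the filter only with their linalool arrays, so the p-values of both fits are a description. At that floor 72 of all tested probes, or 0.217%, had a rise at least as large as that of AK106282, and 78, or 0.235%, one at least as large as that of AK119644. The rises of the WRKY28 probes differed by -0.37 (AK106282 minus AK119644), which did not pass an exact two-sided permutation test over arrays (adjusted p = 0.62 over 8 probe pairs). With normexp, a model-based correction of raw spot signals for local background, this difference was of the other sign, at 0.22, and passed (exact permutation, adjusted p = 0.0457). That correction also added an offset of 50 units to every spot, which shrinks log2 differences of dim probes wherever it is used here.

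WRKY62, known in rice as a partner of the immune receptor XA21 and a suppressor of its resistance, was read by a single probe, AK067834. Its levels were -4.82, -5.53, -3.41 and -3.00 on linalool replicates 1 to 4, against -7.51, -8.64, -8.05 and -8.75 on mock replicates 1 to 4. The probe cleared background on each of the 4 linalool arrays and on 0 mock arrays, and the groups did not overlap. In processed signal it read 38.6, 33.3, 151.0 and 180.2 units after linalool, so replicates 3 and 4 were several times brighter than 1 and 2, against 2.1 to 4.8 units in mock blades. Because no mock array measured it, the rise is given as at least 5.12-fold, a log2 difference of 2.36 at the floor (limma adjusted p = 0.00342). The floor stood in for every mock value, so this p-value does not measure the spread between mock arrays. The probe passed the filter only with its linalool arrays, so its p-values are a description. The fit without the floor gave 4.04 (limma adjusted p = 0.000329), which depends on mock signals below the floor. With normexp background correction the difference was 1.23 and no longer passed (limma adjusted p = 0.158).

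WRKY71, described in rice as a repressor of gibberellin signalling in aleurone cells and as a gene induced by pathogens, gave unlike results on its probes. Probe AK058773, which covers coding sequence and 3′ untranslated region, had levels of 2.46, 2.73, 2.15 and 2.32 on the linalool arrays, against 2.15, 0.74, 0.23 and -0.43 on the mock arrays. Linalool arrays lay close together, and mock replicate 1 stood apart from the other mock arrays, just under the lowest linalool array. The log2 difference was 1.75 ± 0.48 (SE, n = 4 each, limma adjusted p = 0.0119), a 3.35-fold rise. Without 1 array at a time the difference was 1.38 to 2.24, highest without mock replicate 1 and lowest without mock replicate 4.

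Probe AY676927, named as a coding-sequence probe and tied in the array's annotation to a transcript accession rather than to a locus, did not pass. Its levels were -2.04, -1.33, -2.16 and -2.14 on the linalool arrays, against -1.40, -2.05, -2.45 and -2.34 on the mock arrays. The groups overlapped, with linalool replicate 2 and mock replicate 1 above the other 6 arrays. The log2 difference was 0.14, with a 95% interval of -0.48 to 0.76 (limma adjusted p = 0.661). Scaled to the spike-in probes, which read control RNA added at labelling, it was 0.93 and passed (limma adjusted p = 0.0109). The log2 rise of AK058773 exceeded that of AY676927 by 1.60 (exact two-sided permutation test over arrays, adjusted p = 0.0381). Leaving out any 1 linalool array raised this adjusted p to between 0.0762 and 0.0914, and normexp correction to 0.0653. Only 1.97% of the 6488 genes with at least 2 tested probes had probes that lay as far apart.

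WRKY76, known in rice as a repressor of defence genes, was read by 4 probes, of which 2 were lower after linalool and 2 dim ones higher. The array's annotation ties AK068337 to the second transcript of the locus, Os09t0417600-02, and the other 3 probes to the first, Os09t0417600-01. The brightest probe, AK068337, fell: its levels were -0.20, -1.41, -1.11 and -1.22 on linalool replicates 1 to 4, against 0.37, 0.44, 0.04 and 0.20 on mock replicates 1 to 4. The groups did not overlap, and linalool replicate 1 lay closest to the mock arrays. Before scaling, the processed signals of AK068337 overlapped, at 580.6 to 949.0 units on linalool arrays and 887.5 to 1155.2 on mock arrays. The log2 difference was -1.25 ± 0.25 (SE, n = 4 each, limma adjusted p = 0.0023), and with spike-in scaling it was -0.46 (limma adjusted p = 0.049).

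Probe AF467736, a coding-sequence probe of the first transcript, was also lower. It had levels of -3.61, -4.26, -4.62 and -4.44 on the linalool arrays, against -3.17, -3.50, -3.51 and -3.58 on the mock arrays. The lowest mock array lay just above the highest linalool array. Before scaling, its processed signals overlapped, at 65.0 to 89.7 units on linalool arrays and 75.3 to 96.7 on mock arrays. Its ratio to local background was higher after linalool, at 5.67 to 6.62 against 4.14 to 5.02 on mock arrays. The log2 difference was -0.79 ± 0.21 (SE, n = 4 each, limma adjusted p = 0.0107). Scaled to the spike-in probes the difference was -0.01 and did not pass (limma adjusted p = 0.981), and with normexp correction it was -0.29 and did not pass either (limma adjusted p = 0.848).

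The remaining probes of the first transcript were dim and higher after linalool. Probe AY323479 had levels of -6.24, -6.81, -5.32 and -5.39 on linalool replicates 1 to 4, against -7.32, -8.42, -8.80 and -8.45 on mock replicates 1 to 4. Probe AK059966 had levels of -5.81, -6.95, -5.19 and -5.23 on the linalool arrays, against -6.88, -8.57, -8.50 and -8.64 on the mock arrays. Both cleared background on each of the 4 linalool arrays and on 0 mock arrays. The groups overlapped on AK059966, where mock replicate 1 lay above linalool replicate 2, and did not overlap on AY323479.

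Since no mock array measured them, the differences between group means are given against the floor, at 1.52-fold for AY323479 and 1.69-fold for AK059966. These are log2 differences of 0.61 and 0.76 at the floor, which did not pass (limma adjusted p = 0.123 and 0.0951). The fit without the floor gave 2.31 and 2.36 and passed (limma adjusted p = 0.00131 and 0.00344), so the call rests on mock signals below the floor. With normexp correction the differences were 0.46 and 0.44 and did not pass (limma adjusted p = 0.792 and 0.789). On these probes, as on the WRKY62 probe, linalool replicates 3 and 4 were brighter than 1 and 2, and mock replicate 1 was the highest mock array. Sharing of signal between the neighbouring genes WRKY62 and WRKY76 was not tested, since probe sequences were not used here.

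**Figure D2:**
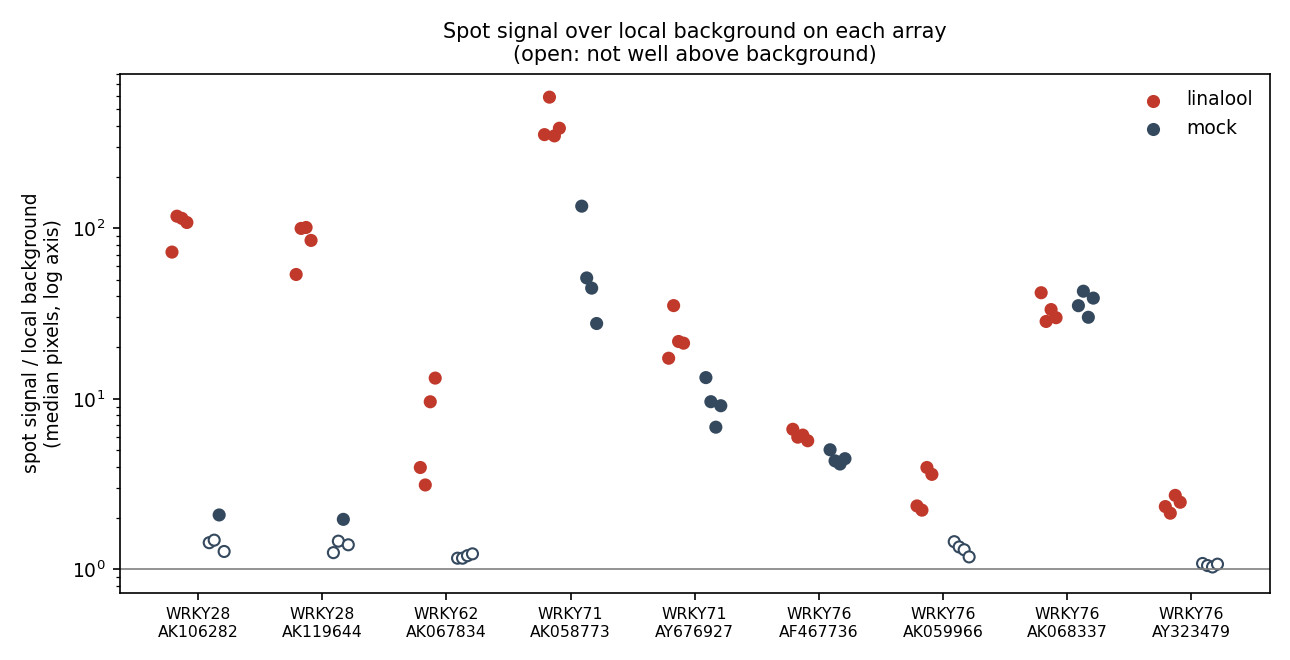
Ratio of the spot's median signal to its local background (log axis) for each of the 9 probes, with linalool arrays in red left of mock arrays in dark blue; open points are not well above background and the grey line marks a ratio of 1. The WRKY62 probe and the WRKY76 probes AK059966 and AY323479 lie at 1.03 to 1.45 on every mock array, whereas AK068337 lies at 28.4 to 41.9 on linalool arrays and 30.1 to 42.8 on mock arrays.

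How far these dim probes stood above their surroundings is shown by the plot of spot signal over local background. AY323479 read 2.13 to 2.71 times its local background on linalool arrays, against 1.03 to 1.08 times on mock arrays. AK059966 read 2.22 to 3.95 times background on linalool arrays and 1.18 to 1.45 times on mock arrays. The WRKY62 probe read 3.12 to 13.2 times background on linalool arrays and 1.16 to 1.23 times on mock arrays. Local background was lower on the linalool slide, as given above, and its part in these differences was not tested.

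Of the 6 pairs of WRKY76 probes, 5 differed in their response to linalool at the smallest p that 4 against 4 arrays allow (exact two-sided permutation test, p = 0.0286, adjusted p = 0.0381 over 8 probe pairs of one gene). The 4 pairs of a dim with a falling probe rest on mock signals that were not measured, so their sizes are given at the floor, where they also reached that p. The dim probes passed the filter only with their linalool arrays, and their own rises did not pass at the floor. The p-values of these 4 pairs are therefore a description and support nothing. There AK059966 exceeded AK068337 by 2.01 on the log2 scale, and AK068337 minus AY323479 was -1.86. AF467736 minus AK059966 was -1.55 and AF467736 minus AY323479 was -1.40. The falling probes differed by 0.46 (AF467736 minus AK068337), a call that was lost without any 1 mock array or without linalool replicate 2. The dim probes differed by 0.15 at the floor and did not pass (exact permutation, adjusted p = 0.359). Without linalool replicate 2, the 4 pairs of a dim with a falling probe were, without the floor, at -3.52, -3.38, 3.85 and -3.70, against -3.15, -3.10, 3.60 and -3.55 with all arrays, and had an adjusted p of 0.0571 (exact permutation). With normexp correction AF467736 minus AK059966 was -0.74 and did not pass (exact permutation, adjusted p = 0.0653). Over the array, 89 of 6488 genes with at least 2 tested probes, or 1.37%, had probes called in both directions, WRKY76 among them. At the floor 87 genes did, and WRKY76 was not 1 of them. Its range of 2.01 between probes at the floor compares with a median range of 0.23 in the 857 genes with at least 4 tested probes, of which 20, WRKY76 included, had a range at least as wide.

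**Figure D3:**
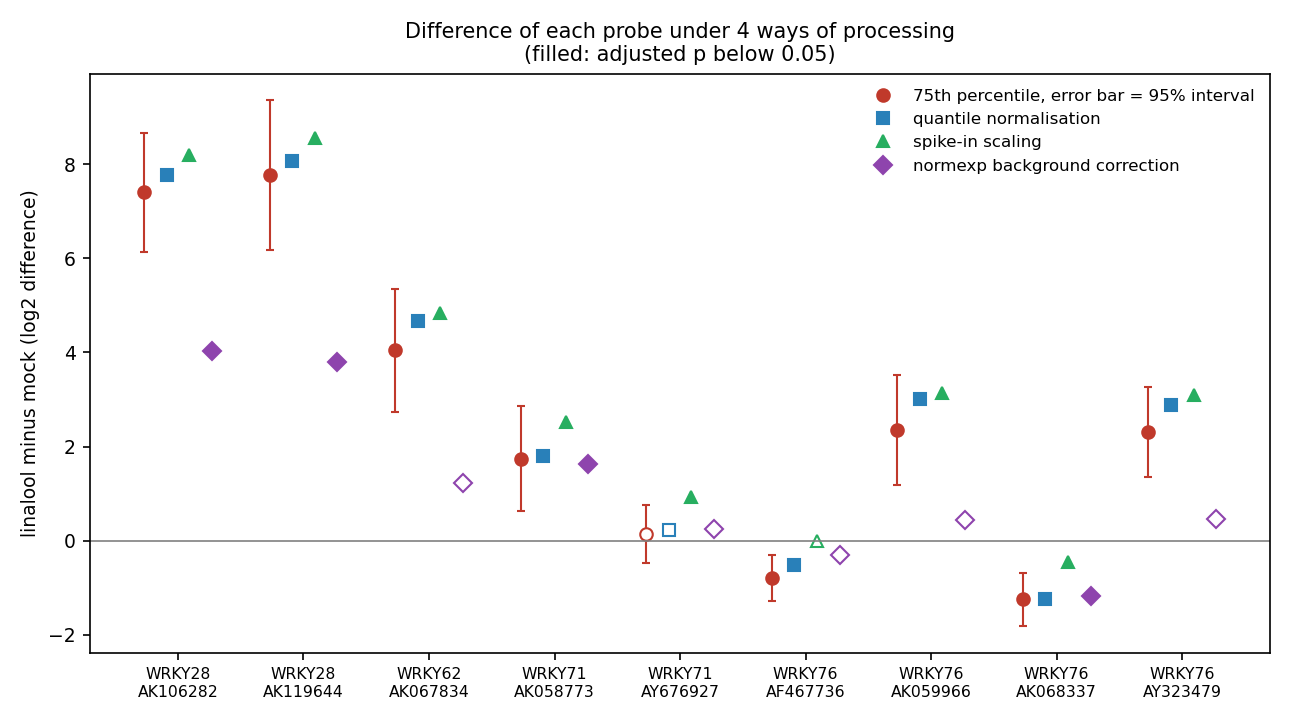
Difference between linalool and mock blades (log2) for each of the 9 probes under 4 ways of processing, with the 95% interval for the values scaled to the 75th percentile; filled symbols have an adjusted p below 0.05. Normexp correction brings the WRKY62 probe to 1.23 and the WRKY76 probes AK059966 and AY323479 to 0.44 and 0.46, all open, while both WRKY28 probes stay at or above 3.80.

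The 4 genes were also compared with each other in the size of their response, taking the brightest probe of each. WRKY62 and WRKY28 were mostly unmeasured in mock blades, so sizes are given at the floor. The probes of WRKY62 and WRKY28 passed the filter only with their linalool arrays, so p-values of pairs with them are a description. There the difference of WRKY28 exceeded that of WRKY62 by 4.07, that of WRKY71 by 4.68 and that of WRKY76 by 7.68 on the log2 scale. Without the floor, all 6 pairs of genes reached the smallest p the design allows (exact two-sided permutation test over arrays, p = 0.0286, adjusted p = 0.0286 over 6 pairs). At the floor 5 of the 6 passed (exact permutation, adjusted p = 0.0343). WRKY62 against WRKY71 did not, at 0.61 (exact permutation, adjusted p = 0.486), and it was -0.40 with normexp correction (adjusted p = 0.686). Without the floor its call was also lost without any 1 mock array. WRKY28 against WRKY62 had an adjusted p of 0.0571 without linalool replicate 1 or 2, and so had WRKY71 against WRKY76 without linalool replicate 2, 3 or 4. These values rest on 1 probe a gene, and for WRKY76 the dim probes have the other sign.

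The genes whose levels followed each member most closely over the 8 arrays were ranked by Pearson's r among 19247 other genes well above background on all arrays, as a description. For WRKY28 (AK106282) they were Os01g0750100 (r = 0.9991), Os03g0773300 (r = 0.9988) and Os03g0299800 (r = 0.9981), but 1964 genes had an r of at least 0.95. Such values mainly reflect the gap between the groups. For WRKY62 they were Os01g0720600, Os01g0754000 and Os03g0839900 (r of 0.9957 to 0.9967), with 876 genes at or above 0.95. The order of genes for WRKY28 and WRKY62 rests partly on mock signals that were not well above background. For WRKY71 (AK058773) only 40 genes reached 0.95, led by Os04g0517100 (r = 0.9937), Os09g0334500 (r = 0.9860) and Os03g0271600 (r = 0.9860). For the falling WRKY76 probe AK068337 they were Os08g0493800, Os02g0240500 and Os11g0639300 (r of 0.9942 to 0.9971), with 341 genes at or above 0.95. Os01g0750100 and Os09g0334500 are also on the lists of related genes described next.

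Genes around the group IIa factors were taken from 5 lists of loci, each gene read by its brightest tested probe. Over all 21543 genes tested, 28.9% were higher and 38.5% lower after linalool, with a median log2 difference of -0.10. The lists were written from recalled locus names, and a symbol is given only where RefSeq's table bears it out. The table bore out no recalled symbol of the defence regulators and few of the other WRKY and PR genes. Membership of those lists therefore rests on recall. Of 9 tested defence regulators out of 11 listed, 6 rose, 1 fell and 2 missed the threshold, and their median was 0.79. The largest rise was that of Os01g0186000, with a mean level of 0.74 ± 0.13 in linalool blades and -2.30 ± 0.39 in mock blades (SD, n = 4 each), a difference of 3.04 (limma adjusted p = 4.61e-06). The other genes named, picked by smallest adjusted p and not by size, were Os05g0343400, which rose by 1.26, Os01g0750100 by 1.25 and Os11g0195500 by 0.63. Os05g0322900, outside that rule, rose by 2.30 with overlapping groups (limma adjusted p = 0.00813). The single fall, of Os09g0392100 by 0.22 (limma adjusted p = 0.0472), is not in the rule for named genes and was lost under most alternatives.

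Of 14 other WRKY genes, all tested, 5 rose, 5 fell and 4 missed the threshold, and their median was 0.23. Loci recalled as WRKY genes are also on the defence regulator list, where all those tested rose. The counts here therefore do not cover all WRKY genes outside group IIa. Os11g0490900 rose most, with a mean level of -0.15 ± 0.20 in linalool blades and -4.29 ± 0.40 in mock blades (SD, n = 4 each), a difference of 4.14 (limma adjusted p = 1.56e-06). Of the others named by smallest adjusted p, Os05g0183100 rose by 1.10, while Os08g0499300 fell by 1.08 and Os05g0583000 by 0.74. Outside that rule, Os02g0462800 had the largest fall of the list, by 1.43 (limma adjusted p = 0.0106). Os09g0334500 rose by 1.13, and Os01g0584900 by 1.47, or 0.74 at the floor. Scaled to the spike-in probes, 0 of the 14 were lower. With only probes well above background on all arrays, 4 were higher and 5 lower.

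Diterpenoid phytoalexins are antimicrobial compounds of rice whose synthesis genes WRKY76 is known to repress. Of 10 listed genes 5 were tested, of which 2 rose and 3 fell, with a median of -0.80. CYP71Z7 and CPS2, genes of the phytocassane branch, were at least 9.52-fold and at least 4.15-fold higher. CYP701A8, a cytochrome P450 gene, was at least 8.56-fold lower, and CPS4, whose product makes the precursor of momilactones, fell by 0.80 (limma adjusted p = 0.00179). CYP71Z7 and CPS2 were well above background on 0 mock arrays, and CYP701A8 on 0 linalool arrays. They passed the filter only with the group where they were high, so the counts are a description and support nothing. With only probes well above background on all arrays, 0 were higher and 1 lower. With normexp correction 0 of the 5 passed in either direction.

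Of 5 pathogenesis-related (PR) genes 4 were tested, of which 3 rose and 1 fell, with a median of 8.69, or 7.85 at the floor. PBZ1 (Os12g0555500), a PR-10 gene, had a mean level of 7.79 ± 0.29 in linalool blades and -0.86 ± 0.73 in mock blades (SD, n = 4 each). Os12g0555200 and Os12g0555000, which lie near PBZ1 by locus number and may share its signal, were also higher, the first by at least 133-fold. Os12g0555000 was well above background on 2 mock arrays only, and at the floor its log2 difference was 10.90. Os01g0382000 fell by 1.24. Os12g0555200, with 0 mock arrays well above background, and Os12g0555000 passed the filter only with their linalool arrays. With only probes well above background on all arrays, 1 PR gene was higher and 1 lower. WRKY71 is known to act in the gibberellin response in aleurone. On the list of gibberellin and amylase genes, 2 of 3 were tested and 0 passed with limma. GAMYB, a transcription factor of the gibberellin response, had a difference of -0.25 (limma adjusted p = 0.105). The alpha-amylase gene RAmy3D, dim and well above background on 3 linalool and 3 mock arrays, had one of -0.55 (limma adjusted p = 0.382).

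**Figure D4:**
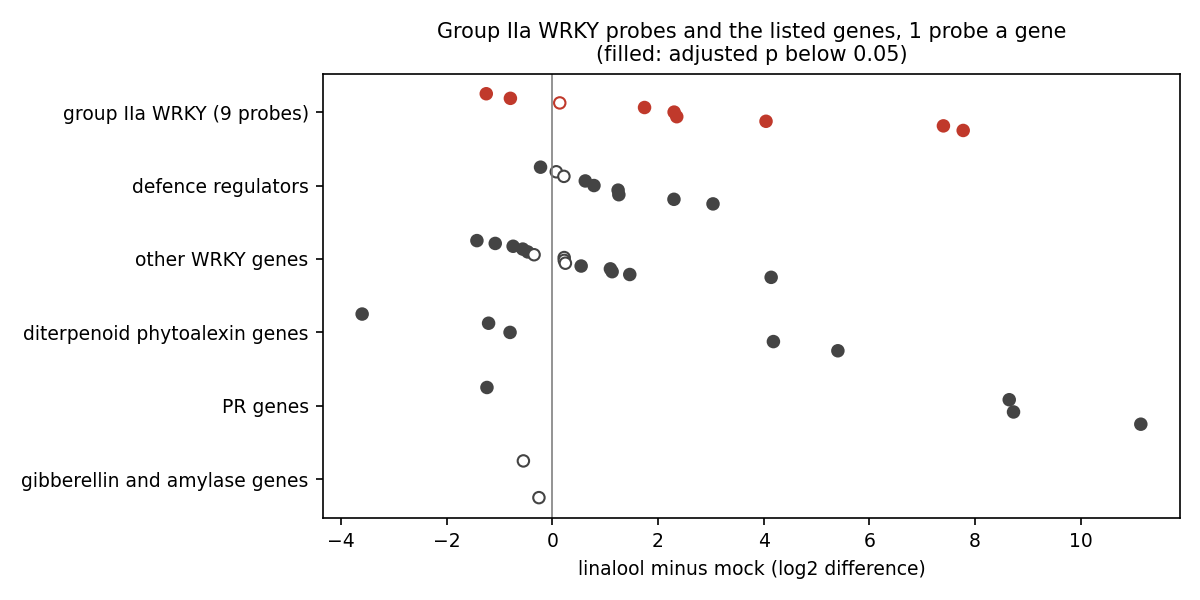
Difference between linalool and mock blades (log2) for the 9 group IIa WRKY probes (red, top row) and for the tested genes of 5 lists, 1 probe a gene (dark points); filled points have an adjusted p below 0.05. The WRKY28 probes, plotted at 7.40 and 7.78, lie above every tested gene of the defence regulator and other WRKY lists, as they would at 6.43 and 6.34 with dim arrays at the floor.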

How the data were processed

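Per the file headers, spots were quantified by Feature Extraction software (Agilent, 10.7.3.1). The intensity deposited for a spot is the software's processed signal, corrected for background and not scaled between arrays. A value table of the series held the same intensities times 1 constant per array (1.37 to 2.51), with no rule stated by the labels. The flags of the software, deposited in the same files, are other values of 0 or 1.

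Processed signals were taken to log2 and centred on each array's 75th percentile. Non-uniform spots were left out and spots of 1 probe averaged. Of 42477 probes, 33124 well above background on at least 4 arrays entered limma's moderated test (3.58.1, under R 4.3.3, Benjamini-Hochberg over all of them), a step tested on simulated data. Probe and gene pairs were compared by exact permutation over arrays. A bound sets the bright group's mean against, per dim array, the higher of its own value and the lowest signal well above background there. It concerns group means and takes no account of the spread between arrays. A gene was its tested probe with the highest mean, leaving out 1358 probes whose name columns disagree.

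Alternatives were quantile, median and spike-in scaling, normexp with an offset of 50 on median spot and background signals, and the value table. Further ones were other detection filters, non-uniform spots kept, the replicate number as a block, and arrays left out. Dim arrays at the floor defined in the text were added after the data were seen. Members, lists and alternatives were chosen with earlier results of these data known. All member probes are named, with up to 4 listed genes of smallest p and 3 like genes per member. Of 56 recalled symbols, 26 were borne out by the reference. The number of arrays limits the precision, and p-values measure only the spread between these pooled samples.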

Additional observations from a re-analysis of the deposited data

Results flagged for a closer look

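In each group of 4 arrays, an array was marked when its gap to the nearest other array filled most of the group's range (Dixon's test at 95%). Of 54 groups tested, 7 had such an array, where chance gives about 1 in 20. Linalool replicate 1 was low on both WRKY28 probes, at -0.02 against 0.21 to 0.24 for AK106282 and at -0.09 against 0.23 to 0.28 for AK119644. Linalool replicate 2 was high on the WRKY71 probe AY676927, at -1.33 against -2.16 to -2.04. Mock replicate 1 was high on the WRKY76 probe AK059966, at -6.88 against -8.64 to -8.50, although it was not well above background there. Among the listed genes, CYP701A8 on linalool replicate 4 was low, at -8.85, with the others at -7.63 to -7.42, linalool replicate 1 a PBZ1 level of 8.22 against 7.61 to 7.68, and mock replicate 2 a RAmy3D level of -7.36 against -5.65 to -5.38.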

How the results depend on the processing

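The log2 differences of both WRKY28 probes and of the falling WRKY76 probe AK068337 passed under every alternative that tested them (19 for WRKY28, 20 for AK068337). Normexp correction left 9402 probes past the threshold, 4757 higher and 4645 lower, and of the WRKY probes 3 higher and 1 lower. It gave 1.23 for WRKY62, and 0.44, 0.46 and -0.29 for the WRKY76 probes AK059966, AY323479 and AF467736, none past the threshold. The part of its offset of 50 units in these lost calls was not tested. Spike-in scaling moved the median of all probes by 0.79 and gave 19586 higher and 4387 lower, 81.7% of calls higher against 42.2%. It left 1 WRKY probe lower, with AF467736 at -0.0053, and AY676927 of WRKY71 passed at 0.93. Only probes well above background on all arrays left 1 WRKY probe higher, since 5 were not tested. The cause of the other changes was not tested.

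Without 1 array at a time, 20505 to 22448 probes passed, with 6 WRKY probes higher and 2 lower each time. AY676927 of WRKY71 then ran from -0.0531 to 0.36. Chosen after seeing the data, the floor for dim arrays gave 0.76 for AK059966 and 0.61 for AY323479, which no longer passed. Also chosen then, leaving out linalool arrays 1 and 2 gave 1.56 for AK058773, which no longer passed, and -0.0907 for AY676927. Leaving out linalool arrays 3 and 4 gave -0.49 for AF467736, which no longer passed, so 1 WRKY probe stayed lower. Of pair differences that had not passed, the WRKY28 pair was 0.22 with normexp, then passing, 0.0921 at the floor and -0.62 to 0.0447 without 1 array. The pair of dim WRKY76 probes was -0.015 with normexp and -0.0468 to 0.16 without 1 array. WRKY62 against WRKY71, which had passed, also changed sign, to -0.40 with normexp.

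Same-numbered arrays of the groups deviated from their group means with correlations of -0.003, 0.168, 0.109 and -0.11. The numbers were therefore not taken as pairs. Linalool replicates 2 and 3 correlated best with the mock array of their own number. Linalool replicate 1 correlated best with mock replicate 2, and linalool replicate 4 with mock replicate 3. With the replicate number as a block, 21250 probes passed and the 9 WRKY probes kept their side of the threshold. For pair differences the smallest p with that block is 0.125, so none could pass under the block. Signal near background limits WRKY62 and the dim WRKY76 probes.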
